A study of Rattus norvegicus with 18 samples.

Results

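*C1qc* (transcript ENSRNOT00000017065) and *P2ry6* (transcript ENSRNOT00000050227), a complement gene and a nucleotide receptor gene both known from macrophages, were followed across the dorsal root ganglia (DRGs) of naive, sham, and TKA rats. They were picked by name, as 2 of the 41078 Ensembl transcripts in the count table, and both had enough reads to be tested in every comparison. Both are among the transcripts that the study listed for TKA against sham on these same rats, so the TKA against sham values below are not independent evidence that they differ. DRGs are the clusters along the spine that hold the cell bodies of sensory neurons together with satellite glia, Schwann cells, blood vessels, and resident macrophages.

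RNA was taken from the left L3 and L4 DRGs of 18 Sprague Dawley rats of about 300 g, and each rat gave 1 bulk library. The 6 naive rats had no procedure. The 6 sham rats were anesthetized with isoflurane, had the skin over the left knee cut, and were sutured. The 6 TKA rats had the same anesthesia and a total knee arthroplasty (TKA), in which the left knee joint was replaced by an implant. DRGs of both operated groups were collected 24 h after the operation. The sources name no transgene or edited allele, every group held 3 rats labelled male (rats 1 to 3) and 3 labelled female (rats 4 to 6), and ages are not given in the sources used here. The sham operation leaves the joint itself in place, so TKA and sham rats differ in the whole of the joint surgery and not in any single step of it.

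C1q is the recognition part of the C1 complex, which starts the classical complement pathway. It is built from A, B, and C chains encoded by *C1qa*, *C1qb*, and *C1qc*, it works with the proteases C1r and C1s, and tissue macrophages and microglia are its main source. P2Y6, the product of *P2ry6*, is a receptor coupled to G proteins that responds to UDP, a nucleotide released by damaged cells, and in microglia it is known for starting the uptake of cell debris.

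Total counts per library ranged from 20230562 to 29343899 with a median of 22564914. Levels are given in CPM, that is, each count relative to the size of its library, with TMM factors to correct for differences in library composition. At these depths 1 count was worth between 0.0346 and 0.0509 CPM. TKA rat 2 stood apart from the other libraries. Its level of the muscle actin transcript *Acta1* was 5877 CPM against at most 647.5 in any other rat, and its level of the neurofilament transcript *Nefl* was 5632 CPM against at least 7401 in the others. TKA rat 4 carried the label female, yet its 3472 counts on 3 transcripts fell in the range of rats labelled male (3097 to 5025). No other rat labelled female exceeded 1 count there. On 1 transcript found only in rats labelled female it had 0 counts, against 350 to 627 in the others so labelled. TKA rat 6 came next to rat 2 in Schwann cell markers (a sum of 49670 CPM) and had a low sum of neuron markers (21630 CPM). Results are therefore also given without TKA rat 2, or without both, and results by sex are given by label only.

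*C1qc* was highest in TKA rats, and the naive and sham levels overlapped. Counts of *C1qc* ranged from 124 to 974 per rat. In naive rats the lowest, median, and highest levels were 6.30, 14.9, and 18.4 CPM. In sham rats they were 5.56, 10.5, and 17.2 CPM, and in TKA rats they were 16.9, 21.0, and 49.6 CPM. The lowest TKA rat, rat 4, lay just under the highest sham rat, rat 2, while the other 5 TKA rats lay above every sham rat and every naive rat. The means were 13.8 ± 4.32 CPM in naive rats, 11.02 ± 4.22 in sham rats, and 25.0 ± 12.2 in TKA rats (SD, n = 6 each). The order was sham, naive, TKA, and sham and naive lay within their own spread. TKA rat 2 alone carried the upper end, because the other 5 TKA rats averaged 20.1 ± 2.36 CPM.

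*P2ry6* was a transcript of low count that was present in every TKA rat and nearly missing in some sham rats. Counts ranged from 54 to 116 in TKA rats, from 6 to 51 in naive rats, and from 0 to 26 in sham rats. The lowest, median, and highest levels were 0.267, 1.22, and 2.33 CPM in naive rats, 0, 0.703, and 1.25 CPM in sham rats, and 2.58, 3.47, and 5.50 CPM in TKA rats. All 6 TKA rats lay above all 6 sham rats and all 6 naive rats, and the lowest TKA value, again rat 4, was close to the highest naive value, naive rat 4. The means were 1.21 ± 0.813 CPM in naive rats, 0.632 ± 0.537 in sham rats, and 3.65 ± 1.04 in TKA rats (SD, n = 6 each), and 3.28 ± 0.570 in the 5 TKA rats without rat 2. As with *C1qc*, the order was sham, naive, TKA, and the sham and naive values overlapped.

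**Figure D1:**
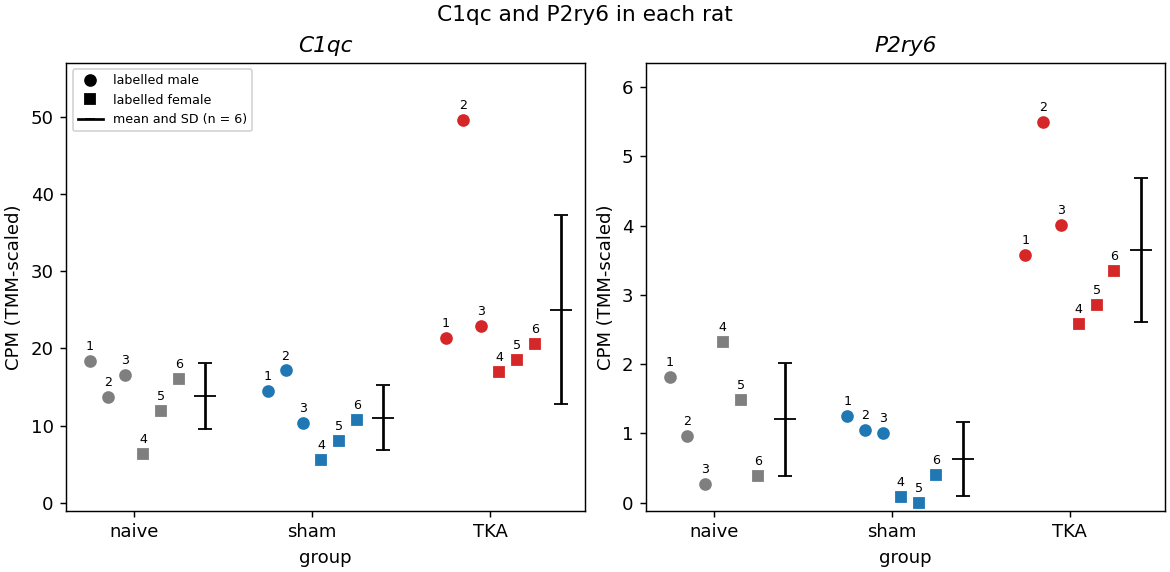
Level of *C1qc* (left) and *P2ry6* (right) in each of 18 rats, in CPM after TMM scaling, by group, with the mean and SD (n = 6) beside each group and the rat number above each point. For *P2ry6* the 6 TKA rats sit between 2.58 and 5.50 CPM, above all other rats, while for *C1qc* TKA rat 2 sits at 49.6 CPM and the other TKA rats between 16.9 and 23.0 CPM.

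In the count data, reads alone left a smaller error than the rats did. For *C1qc* the coefficient of variation was 31.3% in naive, 38.3% in sham, and 49.0% in TKA rats, while counting error at these depths would give 5.76%, 6.24%, and 4.16%. For *P2ry6* it was 67.4%, 84.9%, and 28.5% in the same order, against counting errors of 19.4%, 26.3%, and 10.8%. Relative to its mean, *P2ry6* thus varied most from rat to rat in the sham group and least in the TKA group. Its SD had the opposite order, with 0.537 CPM in sham, 0.813 in naive, and 1.04 in TKA rats. Sham rat 5 had 0 *P2ry6* counts, which allows a level of up to 0.126 CPM (3 counts in that library, for counting error only), and sham rat 4 had 2 counts.

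The comparison of TKA with sham rats asks what joint replacement adds to anesthesia and a skin wound. *C1qc* had a log2 fold-change of 1.20 (SE 0.32), with an adjusted p = 0.441 in edgeR's quasi-likelihood test. *P2ry6* had a log2 fold-change of 2.53 (SE 0.71), with an adjusted p = 0.469 in the same test. Neither passed the threshold, an adjusted p under 0.05 together with at least a 1.5-fold change, and neither did any of the 15320 transcripts tested (0 called, 0%), of which 1355 (8.84%) had an unadjusted p under 0.05. By unadjusted p in the edgeR fit, *C1qc* ranked 77 and *P2ry6* ranked 103 of all transcripts, and 5.94% of all transcripts were higher in TKA rats with an unadjusted p under 0.05. Of all transcripts tested, 0.444% had all 6 TKA rats above all 6 sham rats, as *P2ry6* did, and 1.78% had at least 5, as *C1qc* did.

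The tool decided the call. With a prior, which shrinks uncertain fold-changes toward 0, DESeq2 gave a log2 fold-change of 0.93 with an adjusted p = 0.0426 for *C1qc* and of 1.18 with an adjusted p = 0.0244 for *P2ry6*. Both were among 58 transcripts called by that tool, 0.394% of those it tested. Without the prior, DESeq2 gave 1.20 (adjusted p = 0.0451) and 2.54 (adjusted p = 0.0202), so the prior took away more of the change of *P2ry6*, the transcript with fewer counts. limma voom with sample quality weights gave 0.77 (adjusted p = 0.217) for *C1qc* and 2.62 (adjusted p = 0.162) for *P2ry6*. In edgeR without TKA rat 2, *C1qc* was 0.86 (SE 0.23, adjusted p = 0.298) and *P2ry6* 2.36 (SE 0.70, adjusted p = 0.363), and without TKA rats 2 and 6 they were 0.85 (SE 0.25, adjusted p = 0.427) and 2.35 (SE 0.76, adjusted p = 0.490).

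**Figure D2:**
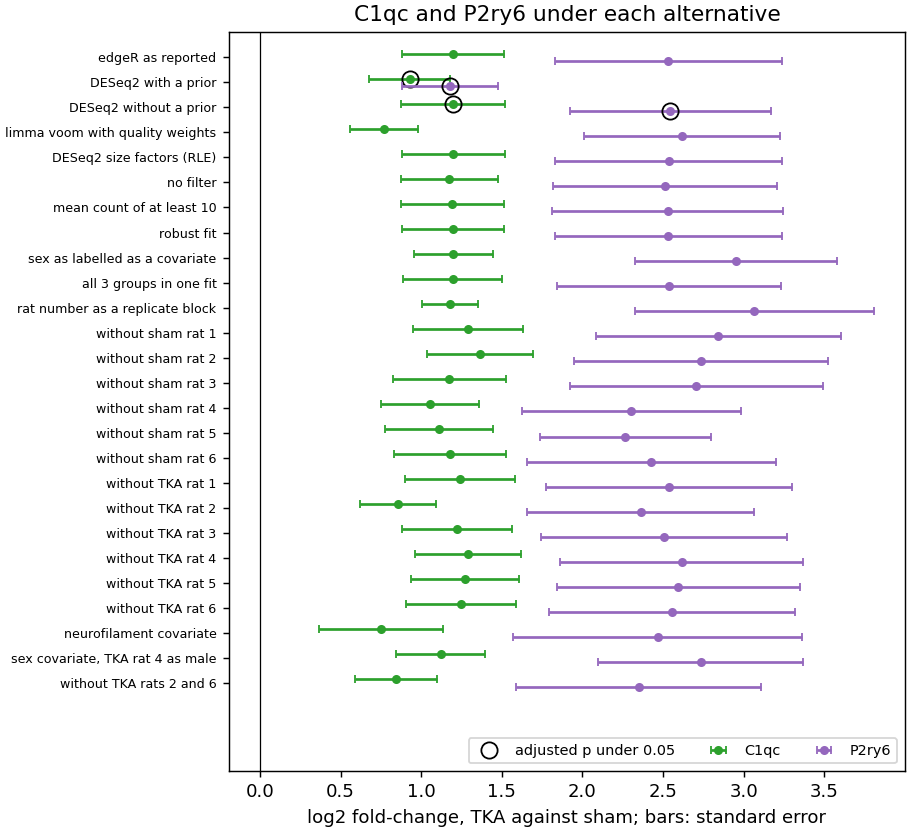
Log2 fold-change of *C1qc* (green) and *P2ry6* (purple), TKA against sham, with its standard error, in the edgeR fit as reported and under each alternative, where open rings mark an adjusted p under 0.05. All points lie above 0, and rings stand only at DESeq2 with and without a prior, at 0.93 and 1.20 for *C1qc* and at 1.18 and 2.54 for *P2ry6*.

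Against naive rats, the same TKA libraries showed smaller differences. The log2 fold-change was 0.88 (SE 0.30) with an adjusted p = 0.185 for *C1qc*, and 1.61 (SE 0.47) with an adjusted p = 0.148 for *P2ry6* (edgeR). Neither was among the 13 transcripts called in this comparison, 0.0857% of the 15170 tested, and 11.7% of all transcripts were higher with an unadjusted p under 0.05. DESeq2 with a prior gave 0.73 (adjusted p = 0.0761) for *C1qc* and 1.11 (adjusted p = 0.0263) for *P2ry6*, so with that tool *P2ry6* alone of the pair was among its 355 calls, 2.58% of those tested. All 6 TKA rats lay above all 6 naive rats for *P2ry6*, which held for 1.16% of transcripts, and 5 of 6 did for *C1qc*, where 3.95% had at least 5. Both comparisons use the same TKA libraries.

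Sham rats did not lie above naive rats for either transcript. The log2 fold-change, sham against naive, was -0.32 (SE 0.27) for *C1qc* and -0.92 (SE 0.78) for *P2ry6*, each with an adjusted p = 0.998 in edgeR. In this comparison edgeR called 0 of 15153 transcripts (0%), 625 (4.12%) had an unadjusted p under 0.05, and DESeq2 with a prior also called 0. The standard error of *P2ry6* leaves room for a sizeable change in either direction. No sham rat exceeded the highest naive rat for either transcript, 1 sham rat lay under the lowest naive rat for *C1qc*, and 2 did for *P2ry6*.

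By the sex labels, *P2ry6* in sham rats fell into separate ranges. The 3 sham rats labelled male had 1.0 to 1.25 CPM, and the 3 labelled female had 0 to 0.403 CPM. In TKA rats the ranges were 3.58 to 5.50 CPM for rats labelled male and 2.58 to 3.35 CPM for rats labelled female. In naive rats the ranges overlapped, with 0.267 to 1.81 CPM for males and 0.390 to 2.33 CPM for females. The change from sham to TKA, male minus female, differed by -2.10 on the log2 scale (SE 1.06, adjusted p = 0.9996 in edgeR's test of the interaction, with 0 transcripts called), so a difference between the sexes was not shown. For *C1qc* the means were 13.97 CPM in sham and 31.3 CPM in TKA rats labelled male, and 8.08 and 18.7 CPM in rats labelled female. That interaction was -0.02 (SE 0.50, adjusted p = 0.9996, edgeR). Against naive rats the interaction was 0.27 (SE 0.52) for *C1qc* and 1.07 (SE 0.95) for *P2ry6*, each with an adjusted p = 0.995 in edgeR. Since TKA rat 4 goes against its label, these values hold for labels only.

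Within a rat, *P2ry6* was compared with *C1qc* as the difference of their log2 CPM. The absolute size of this ratio also reflects transcript length, so only its differences between rats are read. In naive rats the ratio ranged from -5.56 to -1.40, and in sham rats from -6.53 to -3.25. The lowest value belongs to sham rat 5, which had 0 *P2ry6* counts, so the prior count of 2 sets its size. In TKA rats it ranged only from -3.15 to -2.49. All 6 TKA rats lay above all 6 sham rats, whereas the naive rats spread on both sides of the TKA rats. The mean was -2.69 ± 0.24 in TKA, -4.43 ± 1.21 in sham, and -3.66 ± 1.51 in naive rats (SD, n = 6 each). TKA exceeded sham by 1.75, the most extreme of 924 possible splits (two-sided exact permutation p = 0.00217, which no split can go below, Benjamini-Hochberg adjusted p = 0.0130 over 6 ratio comparisons). The difference was 2.24 with a prior count of 0.5 and 1.33 without sham rat 5, with the same exact permutation p. TKA exceeded naive rats by 0.98 (exact permutation p = 0.180, adjusted 0.504), and sham fell below naive rats with a difference of -0.77 (exact permutation p = 0.361, adjusted 0.504). Both transcripts were listed for TKA against sham on these rats, with the larger fold-change for *P2ry6*. The direction and relative size of each were thus known when the ratio was formed. The exact permutation p for TKA against sham is therefore no independent evidence that the ratio differs.

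**Figure D3:**
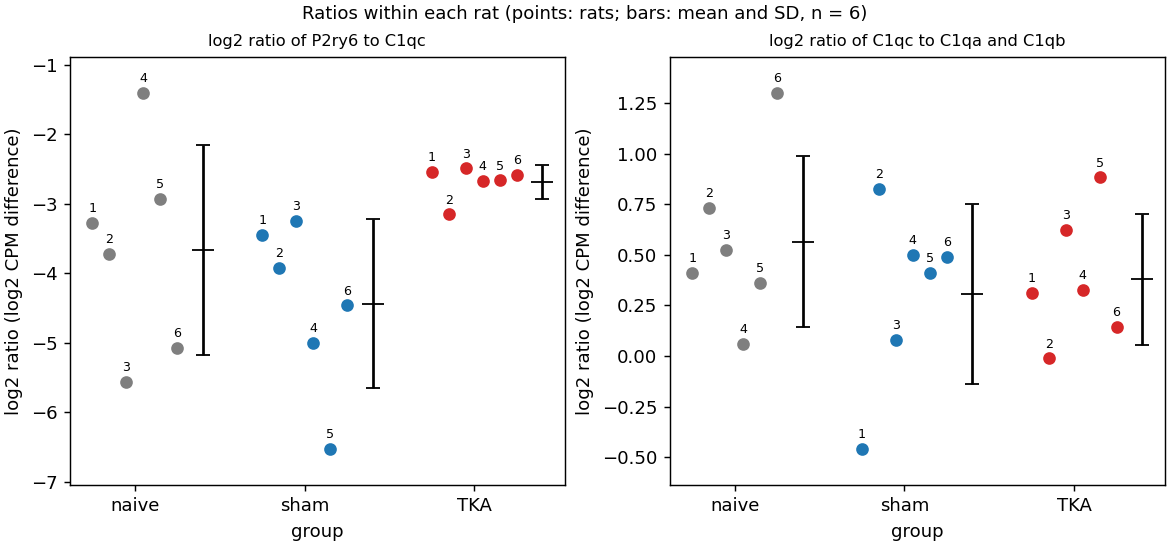
Log2 ratio within each rat of *P2ry6* to *C1qc* (left) and of *C1qc* to the mean of *C1qa* and *C1qb* (right), with the mean and SD of each group (n = 6). The left ratio lies between -3.15 and -2.49 in the 6 TKA rats and between -6.53 and -3.25 in the 6 sham rats, and the right ratio overlaps across all groups.

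Both transcripts also moved together among the TKA rats. Over the 6 TKA rats the log2 CPM of *P2ry6* and *C1qc* had a Pearson r of 0.94 (exact permutation p = 0.00139, adjusted 0.00417 over 3 groups) and a Spearman rho of 1.0 (exact permutation p = 0.00278, adjusted 0.00833). Without the 2 rats farthest from the median of *C1qc*, r was 1.0 over the remaining 4. Over the 6 sham rats r was 0.80 (exact permutation p = 0.0611, adjusted 0.0917) and rho 0.83 (exact permutation p = 0.0583, adjusted 0.0875), with r 0.86 without the 2 farthest rats. Over the 6 naive rats r was -0.57 (exact permutation p = 0.222) and rho -0.43 (exact permutation p = 0.419), and r was 0.18 without the 2 farthest rats. The sign of the naive value thus rested on those 2 rats. Whether the correlation differs between groups was not tested, and depth and library composition are shared by both transcripts of a rat. The permutations also pooled the sex labels. Among TKA rats, *C1qc* was 21.3 to 49.6 CPM in those labelled male and 16.9 to 20.6 in those labelled female. *P2ry6* was 3.58 to 5.50 and 2.58 to 3.35 CPM. The lowest value of each transcript, 16.9 and 2.58 CPM, was that of TKA rat 4, which goes against its female label. With that rat counted as male, the ranges overlap for each transcript. The part of sex in these correlations was not tested.

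**Figure D4:**
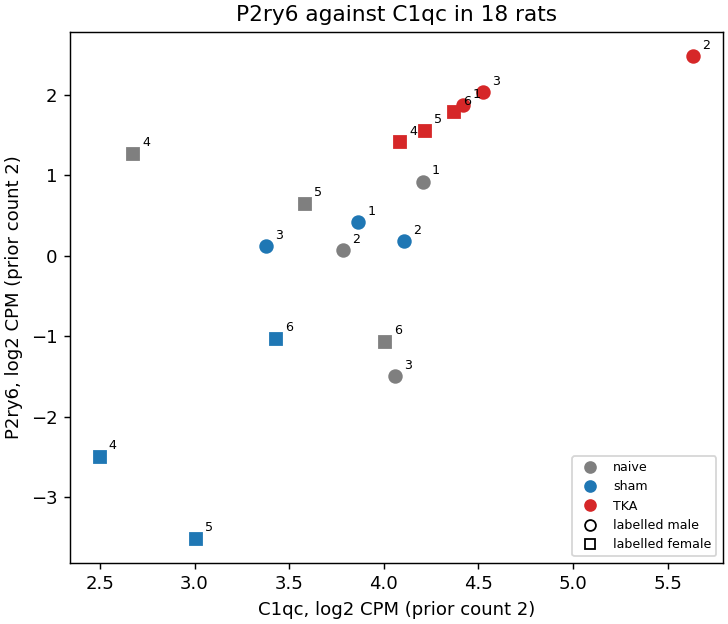
Log2 CPM (prior count 2) of *P2ry6* against *C1qc* in 18 rats, colored by group, with circles for rats labelled male and squares for rats labelled female. The 6 TKA rats form a rising line (r = 0.94) at the upper right, the sham rats trail to the lower left (r = 0.80), and naive rat 4 sits at the upper left.

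*C1qa* and *C1qb*, which encode the other chains of C1q, followed *C1qc*. *C1qa* averaged 9.31 ± 3.87 CPM in naive, 9.29 ± 6.17 in sham, and 19.5 ± 15.3 in TKA rats (SD, n = 6 each). *C1qb* averaged 9.26 ± 2.67, 9.89 ± 5.11, and 22.1 ± 14.01 CPM in the same order. In TKA rat 2 the A, B, and C chain transcripts stood at 49.9, 50.1, and 49.6 CPM, and without that rat the TKA means of *C1qa* and *C1qb* were 13.5 ± 3.78 and 16.5 ± 3.14 CPM (SD, n = 5). Above all sham rats lay 1 TKA rat for *C1qa* and 2 for *C1qb*, and above all naive rats lay 2 for *C1qa* and 5 for *C1qb*, the latter as for *C1qc*. Their log2 fold-changes against sham were 1.09 (SE 0.50, adjusted p = 0.563) and 1.18 (SE 0.39, adjusted p = 0.533) in edgeR, and against naive rats they were 1.09 (SE 0.42, adjusted p = 0.217) and 1.28 (SE 0.33, adjusted p = 0.134). DESeq2 with a prior called *C1qb* against naive rats (1.03, adjusted p = 0.0128), where it did not call *C1qc*.

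The log2 ratio of *C1qc* to the mean of the other chains did not separate the groups. It was 0.57 ± 0.42 in naive, 0.31 ± 0.45 in sham, and 0.38 ± 0.33 in TKA rats (SD, n = 6 each). TKA and sham differed by 0.07 (exact permutation p = 0.762), TKA and naive by -0.19 (p = 0.420, exact), and sham and naive by -0.26 (p = 0.357, exact). These tests do not show that the chains keep a fixed proportion, since single rats differed by over 1 log2 unit, from -0.46 in sham rat 1 to 1.30 in naive rat 6.

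Complement and C1 genes form a list of 26, of which 11 had a transcript that could be named, 9 of these through the study's sheet for TKA against sham. In edgeR no member passed the adjusted threshold. DESeq2 with a prior called 1 of the 11 against sham, *C1qc* itself, and 3 against naive rats, *C1qb*, *C1s* (0.90, adjusted p = 0.0200), and *Serping1* (0.66, adjusted p = 0.0469). Of all transcripts it tested, it called 0.394% against sham and 2.58% against naive rats. With an unadjusted p under 0.05, 7 of the 11 were higher in TKA rats than in sham, against 5.94% of all transcripts and 42.2% of the 1988 tested transcripts named by that sheet. The median log2 fold-change was 0.84, against 0.01 over all transcripts. *C1r* and *C1s*, the proteases of the complex, had log2 fold-changes of 0.70 (SE 0.26) and 0.84 (SE 0.37), and *Serping1*, which encodes the inhibitor of both proteases, had 0.73 (SE 0.23). Against naive rats 9 of 11 were higher with an unadjusted p under 0.05, where 11.7% of all transcripts were. Without TKA rat 2 the numbers were 6 against sham (3.89% of all transcripts) and 5 against naive rats (9.03%). Without TKA rats 2 and 6 they were 2 (3.26%) and 5 (6.86%). For TKA against naive and for the fits without these rats, the share among transcripts named by the study's sheet was not computed. As the naming favors transcripts that differ, these counts are no independent support.

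Of 25 genes for purine and pyrimidine receptors and nucleotide breakdown, 4 were named, so little can be said of the family around *P2ry6*. *P2ry2*, a receptor for ATP and UTP, averaged 41.7 ± 25.1 CPM in TKA and 24.6 ± 7.43 in sham rats (SD, n = 6), a log2 fold-change of 0.78 (SE 0.34). *P2rx7*, an ATP-gated channel, had 14.99 ± 3.18 against 10.8 ± 1.98 CPM, a log2 fold-change of 0.48 (SE 0.18), and 5 of 6 TKA rats lay above all sham rats. *Entpd1*, which encodes an enzyme that breaks down ATP and UDP, had a log2 fold-change of -0.07 (SE 0.78). None of the 4 passed the adjusted threshold of edgeR in any comparison. DESeq2 with a prior called *P2ry6* alone among them, against sham and against naive rats (0.394% and 2.58% of all transcripts it tested). With an unadjusted p under 0.05, 3 of the 4 were higher against sham, *P2ry6* itself among them. The share was 5.94% of all transcripts and 42.2% of those named by the study's sheet for TKA against sham, which named 3 of the 4. Without TKA rat 2 the number was 1 (3.89% of all transcripts), and this was *P2ry6*. These counts are therefore no independent support.

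Against sham, other macrophage genes had fold-changes above 0 in TKA rats, by amounts close to that of *C1qc* and below that of *P2ry6*. A list of 23 macrophage markers held 18 with a named transcript, 16 of them named through the sheet for TKA against sham, which favors transcripts that differ between those groups. All 18 had a fold-change above 0 against sham, where 51.5% of all transcripts did. The share above 0 among transcripts named by that sheet was not computed, so 18 of 18 is no independent support. None of the 18 passed the adjusted threshold of edgeR or of DESeq2 with a prior. With an unadjusted p under 0.05, 8 of the 18 were higher, against 5.94% of all transcripts and 42.2% of those named by that sheet, and it lies near the latter share. Their log2 fold-changes ran from 0.59 to 1.85 with a median of 1.0. *Csf1r*, the receptor that keeps macrophages alive, had 1.14 (SE 0.55), *Spi1*, which encodes the transcription factor PU.1, had 1.55 (SE 0.57), and the mannose receptor gene *Mrc1* had 1.13 (SE 0.43). Without TKA rat 2 the median was 0.51 and 6 of 18 were higher with an unadjusted p under 0.05 (3.89% of all transcripts). Without TKA rats 2 and 6 the median was 0.55 and the number 3 (3.26%). For the fits without these rats, the share among transcripts named by that sheet was not computed.

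The remaining named markers showed the same range. *Cd14*, which encodes a co-receptor for bacterial lipopolysaccharide, had a log2 fold-change of 1.11 (SE 0.53), and *Itgam*, which encodes the CD11b integrin, had 1.40 (SE 0.83). *Trem2*, a lipid-sensing receptor gene, had 0.97 (SE 0.71) and *Mertk*, a receptor gene for the uptake of dying cells, had 0.64 (SE 0.24). *Laptm5*, *Lyz2*, *Adgre1*, *Tyrobp*, and *Fcer1g* had 1.02, 0.91, 0.75, 0.63, and 0.82. Against naive rats the median of the list was 0.95, and 15 of 18 were higher with an unadjusted p under 0.05, where 11.7% of all transcripts were. Without TKA rat 2 the number was 9 (9.03% of all transcripts). The share among transcripts named by the study's sheet was not computed here, so these counts are no independent support. In this comparison the markers ran from 0.10 to 1.78, and *P2ry6*, at 1.61, did not lie above all of them. *Trem2* had 1.78 and *Laptm5* 1.61. DESeq2 with a prior called 7 of the 18 against naive rats, *Spi1*, *Laptm5*, *Trem2*, *Mertk*, *Lyz2*, *Stab1*, and *F13a1*. It called 2.58% of all transcripts it tested there, and the naming of the list favors transcripts that differ. Against the same naive rats, sham rats had a median of -0.06, with 1 marker lower at that level, where 1.64% of all transcripts were.

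**Figure D5:**
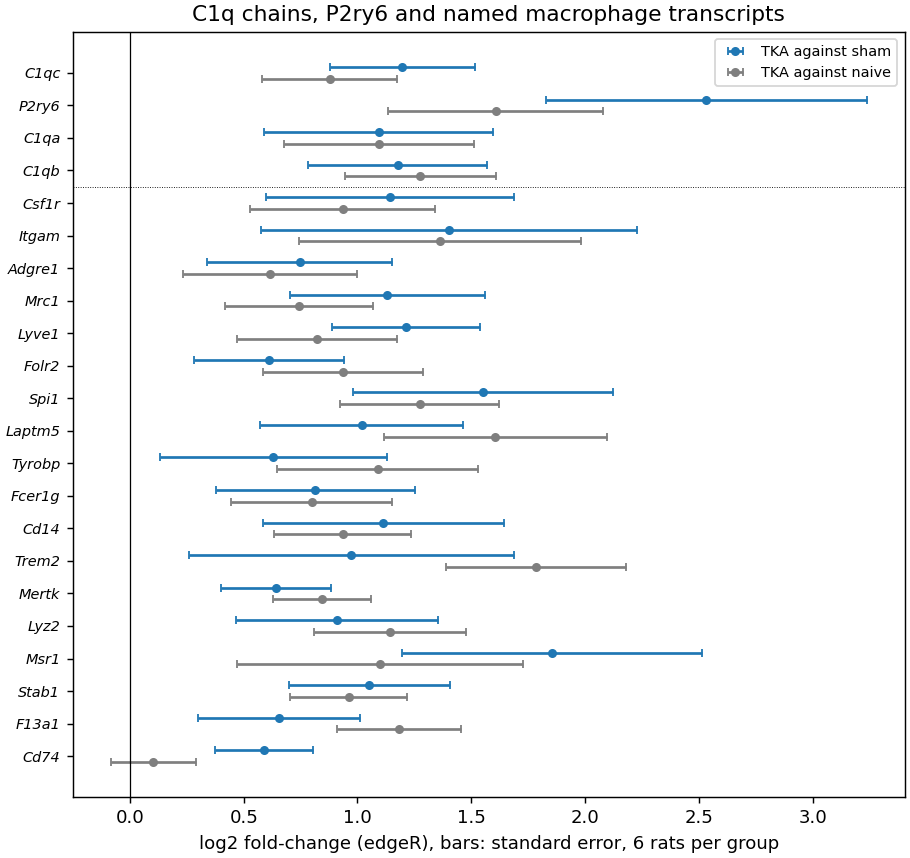
Log2 fold-change with its standard error (edgeR, 6 rats per group) of *C1qc*, *P2ry6*, *C1qa*, *C1qb*, and the 18 named macrophage markers, TKA against sham (blue) and TKA against naive (gray). *P2ry6* lies farthest to the right at 2.53 against sham, and *C1qc* at 1.20 lies within the range of the macrophage markers, 0.59 to 1.85.

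Relative to the mean log2 CPM of these 18 markers in the same rat, *C1qc* shifted little and *P2ry6* shifted more. The log2 ratio of *C1qc* to the list was 1.14 ± 0.37 in naive, 0.96 ± 0.24 in sham, and 1.09 ± 0.17 in TKA rats (SD, n = 6 each). The ratio of *P2ry6* to the list was -2.52 ± 1.22 in naive, -3.48 ± 1.07 in sham, and -1.60 ± 0.32 in TKA rats. All 6 TKA rats lay above all 6 sham rats, but 0 lay above all naive rats, because naive rat 4 stood highest at -0.978. The difference between TKA and sham was 0.13 for *C1qc* and 1.88 for *P2ry6*, given as a description with no test, since the list and both transcripts were chosen with these results known. In bulk libraries of whole ganglia, more macrophages and more RNA of a gene per macrophage cannot be told apart.

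Summed markers of Schwann cells, muscle, satellite glia, fibroblasts, and endothelium reached higher in TKA than in sham rats, and the neuron sum reached lower. The summed level of the 18 macrophage markers was 208 to 341 CPM in naive, 176 to 495 in sham, and 314 to 1020 in TKA rats. The sum of 7 named Schwann cell markers was 6927 to 16890 CPM in sham and 9998 to 88030 in TKA rats, and that of 4 skeletal muscle markers was 20.2 to 605.5 in sham and 33.2 to 8369 in TKA rats. TKA rat 2 held the highest of each of these TKA ranges. Schwann cell sums of TKA rats 3, 4, and 5 (10470, 9998, and 10280 CPM) lay under the sham median of 12160. Those of the other TKA rats lay above it. Muscle sums of TKA rats 1 and 4 (61.7 and 33.2 CPM) lay under the sham median of 128, and the others above it. The sum of 3 satellite glia markers was 288 to 674 CPM in sham and 443 to 2679 in TKA rats. Its members did not agree, as the means of *Glul* and *Gfap* were higher in TKA rats, and *Fabp7* averaged 34.88 CPM against 44.55 in sham rats. The sum of 4 neuron markers was 34410 to 44230 CPM in sham and 17150 to 39730 in TKA rats. It holds mostly neurofilament transcripts, which were lower in TKA rats, while its other member, *Calca*, averaged 542 CPM in TKA and 516.5 in sham rats. Fibroblast markers (4 named) summed to 217 to 463.5 CPM in sham and 422 to 1127 in TKA rats, and 2 endothelial markers to 51.1 to 85.6 and 62.8 to 387. TKA rat 6 was next to rat 2 in the Schwann cell, satellite glia, fibroblast (962 CPM), and endothelial (211 CPM) sums, and next to it at the low end of the neuron sum. Of 9 monocyte and neutrophil markers only *Cd177* was named, with a median of 0 CPM in sham and 0.340 in TKA rats, so entry of blood cells was not measured by this list. The part of these shifts in the result was not tested. With the mean log2 CPM of the neurofilament transcripts as a covariate, a choice made after seeing the data, *C1qc* was 0.75 (SE 0.38) against sham and 0.24 (SE 0.31) against naive rats, and *P2ry6* was 2.47 (SE 0.89) and 1.62 (SE 0.68).

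Across all 18 rats, *C1qc* and *P2ry6* had different closest partners. Among the named transcripts out of 15563 with a mean of at least 10 counts, those most like *C1qc* in log2 CPM included *Ch25h* (Pearson r = 0.91), *C1qa* (0.88), *Selplg* (0.87), and *Scarf2* (0.85). *Ch25h* encodes cholesterol 25-hydroxylase and *Selplg* a selectin ligand of white blood cells. Those most like *P2ry6* were *Ddx39b* (0.87), *Spi1* (0.86), *Eif4ebp1* (0.83), *Cd14* (0.82), and *Sik1* (0.80). *Ddx39b* encodes an RNA helicase, *Eif4ebp1* a repressor of translation, and *Sik1* a kinase. The correlation between *C1qc* and *P2ry6* themselves was 0.66, rank 391 among the transcripts most like *C1qc* and rank 146 among those most like *P2ry6*. Without TKA rat 2, *Ch25h* (0.86), *Msr1* (0.83), and *C1qa* (0.80) were still among the 5 closest to *C1qc*, and *Ddx39b* (0.87) and *Spi1* (0.84) led for *P2ry6*. These values describe 18 libraries that share differences in depth, composition, and group, and they carry no test.

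In the rat assembly GRCr8 as annotated by RefSeq, *C1qb*, *C1qc*, and *C1qa* lie next to each other on chromosome 5. RefSeq lists 1 transcript each for *C1qc*, *C1qa*, and *C1qb* and 6 for *P2ry6*, so reads of *P2ry6* may be divided among isoforms in the table while the count of ENSRNOT00000050227 holds only those assigned to it. The upstream sequence table of RefSeq at hand, used to look for short motifs, had entries for *C1qa* and *C1qb*. It had none for *C1qc* or *P2ry6*, so the motif search does not cover either of them. The letters AGGAAGT, a core bound by PU.1, occurred on either strand in the 250 bases before the start of 1934 of 27457 genes (7.04%), among them *C1qb* with 1 match and not *C1qa*. The stretch of *C1qb* from 101 to 15 bases before its start (GRCr8, chr5:154407842-154407928, minus strand) is shown because it holds this match, with the motif in capitals as it reads on the opposite strand.
C1qb: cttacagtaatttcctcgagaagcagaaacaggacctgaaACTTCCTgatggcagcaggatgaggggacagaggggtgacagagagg
Searched in the same way, TGANTCA (AP-1, in 6.41% of genes) and TTGCNNAA (C/EBP, 9.29%) were in neither upstream sequence, nor was a spaced interferon response motif (3.35%). A loose NF-kappa-B motif that 43.2% of genes held occurred 2 times for *C1qa* and 4 times for *C1qb*. A match is a run of letters and was not tied to binding in these rats.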

How the data were processed

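From each rat's DRGs, the authors made paired-end libraries, read them at 150 bp, and aligned them with HISAT2 to the rat build rn6. The authors deposited the unnormalized counts that featureCounts gave for each Ensembl transcript. Tool versions, annotation release, and counting settings (strand, overlaps) are not given in the sources used here, so reads shared between isoforms or overlapping genes may have been divided or lost. The deposited counts carried no gene names. Names came from the study's supplementary sheets (3837 transcripts), in a shortened copy sorted by the study's own tests, which favors transcripts that differ between groups, and the study's fold-changes and p-values were not used.

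Members, lists, and tests were chosen with earlier results of these data known. Each pair of groups was fitted alone (12 rats) with edgeR 4.0.16 in R 4.3.3, with filterByExpr, TMM scaling, the quasi-likelihood F test, and Benjamini-Hochberg adjustment over all transcripts tested. Standard errors were obtained from F and the log2 fold-change (size of the change over the root of F). Levels are CPM scaled over 18 rats, and log2 CPM used a prior count of 2. Ratios were tested with exact two-sided permutation tests over rats. The p-values measure the spread between rats. Correlations within groups were added after the data were seen.

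Named are *C1qc*, *P2ry6*, fixed members of the complement, nucleotide receptor, and macrophage lists, and the 5 named transcripts with the highest Pearson r to each, of which some are not reported here. The transcript with the highest mean count stood for a symbol. Other settings were limma 3.58.1 voom with quality weights, DESeq2 1.42.0 (with a prior or with none), DESeq2 size factors, other filters (none, or a mean count of 10 and above), robust fitting, labelled sex as a covariate, a joint fit of the 3 groups, a block for the rat number, and each rat left out. The neurofilament covariate, TKA rat 4 entered as male, the fit without TKA rats 2 and 6, the ratios to the macrophage list, and the list counts without these rats were added after seeing the data. The steps were tested on simulated data. No pair of libraries agreed within sampling noise (lowest chi-square per degree of freedom 12.5, naive rat 2 and sham rat 2). RefSeq tables of GRCr8 gave only gene order, isoform numbers, and upstream sequence.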

Additional observations from a re-analysis of the deposited data

Results flagged for a closer look

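Values of 27 groups of 6 rats (levels and ratios by group) were checked for a rat far from the rest by Dixon's gap test, which chance alone would meet in about 1.35 of 27. It was met in 4, all but the last named below in TKA rat 2. The checks share transcripts and libraries and are not separate, so 4 against 1.35 does not show an excess. In TKA rats, *C1qc* stood at 5.63 log2 CPM in rat 2, with the next rat at 4.53, and *C1qb* stood at 5.65 in the same rat, with the next at 4.34. The log2 ratio of *P2ry6* to *C1qc* was lowest in TKA rat 2 at -3.15, with the next rat at -2.67, so *C1qc* was further above the other TKA rats than *P2ry6* was in that library. This is also the rat with the highest muscle and the lowest *Nefl* level, and the part of that in these values was not tested. Among naive rats, the log2 ratio of *C1qc* to the macrophage markers was 0.425 in rat 4, with the next rat at 1.15.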

How the results depend on the processing

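The direction of *C1qc* and *P2ry6* in TKA rats was the same under every alternative run, and the call was not. Against sham, DESeq2 with and without a prior put both past the threshold (*C1qc* 0.93 and 1.20, *P2ry6* 1.18 and 2.54), and against naive rats *P2ry6* alone (1.11 and 1.61). Transcripts called for TKA against sham were 0 in edgeR, 58 and 68 in DESeq2 with and without a prior, 1 in voom, and 11 with all groups in one fit. For TKA against naive they were 13 in edgeR, 355 and 450 in DESeq2, 123 in voom, 116 with all groups in one fit, 39 with the neurofilament covariate, 105 without TKA rats 2 and 6, and 1 with the rat number as a block. For sham against naive, DESeq2 without a prior called 5. With each rat left out in turn, calls for TKA against naive ran from 3 to 113 (the latter without TKA rat 2), *C1qc* from 0.86 to 1.36 against sham and from 0.55 to 0.98 against naive rats, and *P2ry6* from 2.27 to 2.84 and from 1.40 to 1.90, with no change of call for either. The ratio of *P2ry6* to *C1qc* ran from 1.33 to 1.99 for TKA against sham, with an exact permutation p of at most 0.00866, and was 2.24 with a prior count of 0.5. For TKA against naive it ran from 0.60 to 1.43, and without naive rat 4 its exact permutation p was 0.00433. The ratio of *C1qc* to the other chains ran from -0.08 (without sham rat 1) to 0.17 for TKA against sham. The causes of these changes were not tested.

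The labels give each group rats 1 to 6, but rats with the same number did not deviate together (correlations of -0.05 to 0.22, over 0.1 in 1 of 6, 0 of 6, and 1 of 6 pairs), and 0 to 2 of 6 rats correlated best with their own number. With the rat number as a block, *C1qc* was 1.18 and *P2ry6* 3.07 against sham, 0.83 and 1.87 against naive rats, and -0.33 and -1.04 for sham against naive, with no call changed for either transcript. Depth limits *P2ry6* most, with 0 to 26 counts in sham rats. Names cover part of the table, so the lists are incomplete.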
